A study of Rattus norvegicus with 34 samples.

Results

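The regions described here are sharp dips in the sperm methylation signal of rats. A dip is a single 1 kb window with almost no signal whose left and right neighbours both carry strong signal. The windows were chosen by measured values. On chromosomes 1 to 20, the mean over 6 F1 control pools had to be above 0 and at most 0.2 RPKM (reads per kilobase, scaled to library size) in the window, and at least 0.8 RPKM in both neighbours. This gave 3542 dips among 2618741 windows of chromosomes 1 to 20, or 0.135% of them, in a table of 2782040 windows. The values that chose the dips are given as a description, and the question asked of them is whether they fill with signal in sperm of the ifosfamide lineage.

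The assay, methylated DNA immunoprecipitation sequencing (MeDIP-seq), enriches DNA fragments with an antibody that binds methylated cytosine. A window therefore gains reads when its CpG sites are methylated and also when it holds many such sites. Mammalian sperm DNA is methylated at most CpG sites, and CpG-rich islands, often at gene promoters, are the best-known stretches that stay unmethylated. A narrow gap between 2 signal-rich windows is therefore a candidate unmethylated island, and just as well a stretch with few CpG sites or one where reads are hard to place. No library of unselected DNA and no sequence of the build were used here, so these cannot be told apart for any dip. CpG content, repeats and genes at the dips were not analysed here.

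All groups were sperm DNA of outbred Sprague Dawley SD (Harlan) rats, taken from the cauda of the epididymis and freed of somatic cells by sonication and washing. The 6 F2 ifosfamide pools and the 6 F1 ifosfamide pools came from grandsons and sons of F0 males injected with 8.5 mg/kg ifosfamide, an alkylating chemotherapy drug, at 26, 29 and 32 days of age. The 6 F1 control pools came from sons of F0 males given 1.1 mL/kg phosphate-buffered saline (PBS) instead. The labels do not say which F0 male stood behind which pool, so whether pools share a father or grandfather was not tested. Neither F1 nor F2 males were treated, and their age at sperm collection is not given in the sources used here. A pool held 8 to 9 males in F2 and 3 to 4 males in F1. At that size 6 F2 ifosfamide pools need 48 to 54 males, while the labels count 43, and whether pools shared males was not tested. F2 ifosfamide differs from F1 control in lineage, generation and males per pool together. It differs from F1 ifosfamide in generation and males per pool together. These cannot be told apart. The p-values measure the spread between pools.

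The libraries held 23336048 to 39440265 window counts, and 1 read was worth 0.032 to 0.05 RPKM in a window. Libraries differed little in how many windows a read was counted in, with 1.16 to 1.23 in F2 ifosfamide, 1.17 to 1.25 in F1 ifosfamide and 1.16 to 1.22 in F1 control. A read that spans 2 windows is thus counted in both, and a dip shares some reads with its neighbours. F1 ifosfamide pools 1 and 2 lay apart from pools 3 to 6. Their counts differed from each other with a chi-square over degrees of freedom of 1.06, and from pools 3 to 6 by 1.25 to 1.52, against 1.09 to 1.24 among pools 3 to 6. F2 ifosfamide pools differed among themselves by 1.04 to 1.2 and F1 control pools by 1.07 to 1.3, so the ranges overlap in part. The numbers of filled, partly filled and called dips that rest on F1 ifosfamide are therefore also given for its pools 3 to 6 alone. Those pools were picked from these same counts for lying close together, which by itself lowers the spread that a test sees. Calls and adjusted p with them alone are therefore a description.

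Dips were the low end of a broad range of signals and did not form a group of their own. Of 114118 windows with signal between neighbours of at least 0.8 RPKM, 3.1% were dips, and the median signal of all these middle windows was 1.1 RPKM in F1 control. In control pools 806 of them had a mean of up to 0.1 RPKM, 2736 between 0.1 and 0.2 RPKM, 4284 between 0.2 and 0.3 RPKM and 5251 between 0.3 and 0.4 RPKM, with no gap at the threshold. A further 69 windows between such neighbours had a mean of 0 and lay outside the rule. Low signal itself is common, since 35.5% of windows on chromosomes 1 to 20 had a control mean above 0 and at most 0.2 RPKM, and 4.91% were at 0. Strong signal is rarer, with 14.6% of windows at 0.8 RPKM or more.

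Windows at the edge of the rule were close to those beyond it. The nearest dips inside the limit had a control mean of 0.2 RPKM, and the nearest windows outside it 0.202 RPKM. Inside the limit on the neighbours the lower neighbour stood at 0.8 RPKM, against 0.798 RPKM outside. Neither limit marks a step in the data.

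The median dip held 0.143 RPKM in F2 ifosfamide, 0.157 RPKM in F1 ifosfamide and 0.145 RPKM in F1 control. The mean of its 2 neighbours had a median of 1.14, 1.14 and 1.13 RPKM in the same order of groups. In counts summed over 6 pools, the median dip held 22 in F2 ifosfamide, 26 in F1 ifosfamide and 21 in F1 control, so a single dip is measured with little depth. In a single pool 3.33% to 10.8% of dips had no read at all. The neighbours were 8.36 times as high as the dip in the median control case, and from 5.06 to 27.1 times as high between the 5th and the 95th percentile.

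The runs of strong signal beside dips were mostly short. Windows at 0.8 RPKM or more had a median run of 1 on each side and a longest run of 17. The mean signal over all dips was 1.25 to 1.28 RPKM 1 kb to either side in each of the 3 groups and 0.873 to 0.92 RPKM at 2 kb. By 3 kb it was 0.633 to 0.676 RPKM, close to the 0.574 to 0.623 RPKM found 10 kb away. In 1247 dips (35.2%) the run of windows at 0.8 RPKM or more was a single window on each side, and in 107 dips (3.02%) it was at least 3 windows on each side. The neighbours were often unequal, with a median ratio of the higher to the lower of 1.29.

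**Figure D1:**
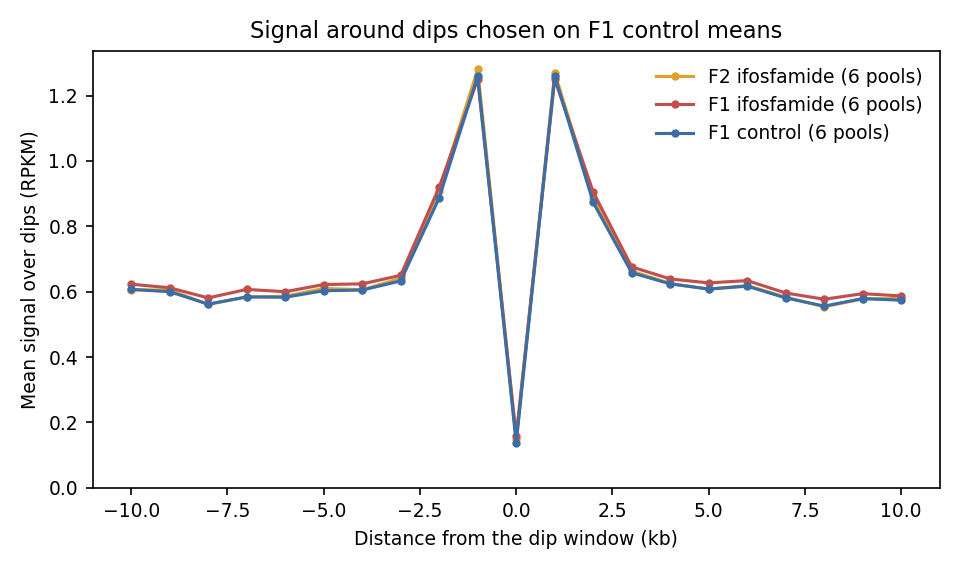
Mean signal in RPKM over 3542 dips, by distance in kb from the dip window, for 6 F2 ifosfamide, 6 F1 ifosfamide and 6 F1 control pools. The dip and its 2 neighbours are set by the rule on control means, and the lines of the 3 groups lie close together, with means of 0.148, 0.158 and 0.137 RPKM in the dip window.

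Dips were spread over all 20 autosomes, with a median distance of 384 kb from one to the next. Only 94 lay within 10 kb of the next, and 24 pairs shared a neighbour. Chromosome 19 had 2.3 dips per 1000 windows, while chromosome 2 had 1.02. Among windows between high neighbours, dips made up 3.55% of those windows on chromosome 19 and 2.79% on chromosome 2. The lowest such share was 1.95% on chromosome 12 and the highest 3.71% on chromosome 8. Within 2 Mb of a chromosome end lay 2.23% of dips and 2.63% of all windows between high neighbours. The X chromosome, outside the rule, had 22 windows of the same shape, or 0.734% of its windows between high neighbours.

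The deepest dips were almost empty in every group. The 8 with the highest ratio of neighbours to dip lay on chromosomes 1, 2, 6, 9 and 20, and all 8 had at most 10 counts over the 6 pools of a group. The deepest, on chromosome 6 at 30645001 to 30646000 (Rnor_6.0), had 6 counts in F2 ifosfamide, 1 in F1 ifosfamide and 3 in F1 control. Its left and right neighbours averaged 21.4 and 15.2 RPKM in F2 ifosfamide, 18.3 and 12.9 RPKM in F1 ifosfamide and 16.4 and 10.5 RPKM in F1 control. This sharp hole between very high windows was thus present in all 3 groups.

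A dip on chromosome 1 at 99080001 to 99081000 had 1 count over the F2 ifosfamide pools, 0 over the F1 ifosfamide pools and 1 over the control pools. Another on chromosome 1, at 180784001 to 180785000, had 1, 0 and 2 counts in the same order. In all, 5 dips had no count in any F2 ifosfamide pool and 5 had none in any F1 ifosfamide pool. A count of 0 over 6 pools allows up to 3 counts, or 0.0195 RPKM in F2 ifosfamide and 0.0183 RPKM in F1 ifosfamide, for counting error only.

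No dip filled to the level of its surroundings in either generation of the ifosfamide lineage. A dip was counted as filled at a group mean of 0.8 RPKM or more and as partly filled above 0.4 RPKM. In F2 ifosfamide 0 of 3542 dips were filled and 2 partly filled, with a highest mean of 0.413 RPKM. In F1 ifosfamide 0 were filled and 3 partly filled, with a highest mean of 0.412 RPKM. With pools 3 to 6 of F1 ifosfamide alone, 0 were filled and 6 partly filled. The few partly filled dips depended on single pools. In F2 ifosfamide they numbered 5 without its pool 1, 4 without its pool 5 and 1 without its pool 2, and 4 where control pool 1, 2 or 4 was left out of the choice. In F1 ifosfamide they numbered 5 without its pool 5 and 6 without its pool 6, and 6, 8 and 6 where control pool 1, 2 or 5 was left out of the choice.

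Means just over the limit of the rule were common in both generations. The mean was above 0.2 RPKM in 765 dips (21.6%) in F2 ifosfamide and in 907 dips (25.6%) in F1 ifosfamide, and 477 dips were above it in both. The whole rule, on dip and neighbours, held for 2096 dips (59.2%) in F2 ifosfamide and for 2001 (56.5%) in F1 ifosfamide, and 1462 (41.3%) met it in all 3 groups. The rule was also applied to the other groups. Of dips chosen on F2 ifosfamide 55.5% met the whole rule in F1 control, and of those chosen on F1 ifosfamide 57%. Between the ifosfamide groups, 54.1% of dips chosen on F1 met it in F2 and 50.3% of those chosen on F2 met it in F1. Among the dips chosen on control means, a neighbour was below 0.8 RPKM at 834 in F2 ifosfamide and at 796 in F1 ifosfamide. In 3513 of the 3542 dips the window lay below its lower neighbour in each of the 12 ifosfamide pools.

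How often a dip passed the limit depended on how near to it the control mean had been. Of 190 dips with a control mean of up to 0.05 RPKM, 0 were above 0.2 RPKM in F2 ifosfamide and 0 in F1 ifosfamide. Of 616 dips between 0.05 and 0.1 RPKM, 2 were above it in F2 ifosfamide and 6 in F1 ifosfamide. Of 2736 dips between 0.1 and 0.2 RPKM, 763 (27.9%) were above it in F2 ifosfamide and 901 (32.9%) in F1 ifosfamide. Dips with the least signal in controls thus kept low values in both ifosfamide groups.

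Because low control values chose the dips, control means are low by selection, and a comparison with them says little. The choice was therefore repeated from 5 control pools, leaving out each pool in turn, and the dips so chosen (3551 to 3688 windows) were read in the control pool that had no part in it. Read this way, 27.8% ± 5.46 of dips (SD, n = 6 pools) were above 0.2 RPKM in a single F2 ifosfamide pool and 31% ± 4.46 in an F1 ifosfamide pool, against 27.5% ± 4.32 in the left-out control pool. Above 0.4 RPKM were 1.62% ± 0.368, 2.25% ± 0.634 and 1.75% ± 0.75 in the same order. Ranges overlapped between all 3 groups, from 18.6% to 33.5% in F2 ifosfamide, 25.3% to 36.3% in F1 ifosfamide and 19.8% to 31.8% in F1 control for the lower limit. The share above 0.2 RPKM also depended on how whole counts translate into rounded RPKM in a pool. In F2 ifosfamide, 5 counts were 0.2 RPKM in pool 4 and 0.21 RPKM in pool 2. Of all 3542 dips, 17.7% were above 0.2 RPKM in pool 4 and 30% in pool 2. The SDs and ranges at this limit thus hold that step besides differences between pools. The SDs at 0.4 RPKM hold such a step too.

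The depth of the dips, as the median ratio of a dip to the mean of its neighbours in a pool, overlapped between the 3 groups. On the same lists it was 0.114 ± 0.00533 in F2 ifosfamide (SD, n = 6 pools), 0.125 ± 0.00677 in F1 ifosfamide and 0.12 ± 0.00609 in left-out control pools. Pools ran from 0.107 to 0.123 in F2 ifosfamide, from 0.115 to 0.136 in F1 ifosfamide and from 0.11 to 0.127 in F1 control, so every pair of groups overlapped. The means of F2 and F1 ifosfamide lay further apart than either SD, and no test was made over the dips. In the control pools that had chosen the dips the ratio was 0.108 ± 0.00585, lower than in the left-out pools. The rule applied to other groups gave 3779 dips on F2 ifosfamide means and 3513 on F1 ifosfamide means. Of these, 811 (21.5%) and 634 (18%) were above 0.2 RPKM in F1 control. Of the dips chosen on F2 ifosfamide, 969 (25.6%) were above it in F1 ifosfamide. Of those chosen on F1 ifosfamide, 631 (18%) were above it in F2 ifosfamide. Values of each group thus passed the limit where another group chose the dips, and differences between these shares were not tested.

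**Figure D2:**
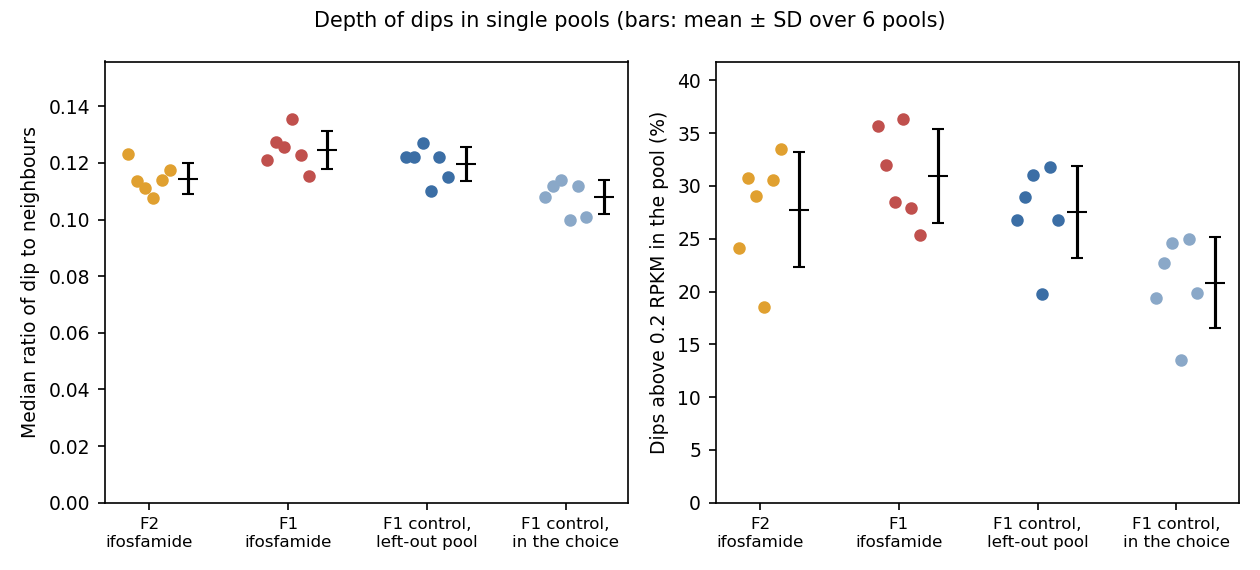
Left, median ratio of a dip to the mean of its 2 neighbours in each pool; right, percent of dips above 0.2 RPKM in that pool; points are single pools and bars mean ± SD over 6 pools. Ifosfamide pools (averaged over the 6 lists) and left-out control pools are read in dips chosen from 5 control pools. The last column is read in the control pools that chose the dips. It has the lowest mean ratio, at 0.108, against 0.114 in F2 ifosfamide, 0.12 in left-out control pools and 0.125 in F1 ifosfamide.

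The dips with the highest means in F2 ifosfamide stayed far below their neighbours. The highest lay on chromosome 5 at 159890001 to 159891000, where F2 ifosfamide pools had 0.29 RPKM at the lowest, 0.355 at the median and 0.79 at the highest. F1 ifosfamide pools had 0.09, 0.275 and 0.44 RPKM there, and F1 control pools 0.04, 0.22 and 0.3 RPKM. The groups overlapped, and the F2 mean of 0.413 RPKM rested on pool 2, the only one above 0.38 RPKM. In F2 ifosfamide its neighbours stood at 1.53 and 1.56 RPKM. The next highest was on chromosome 1 at 222861001 to 222862000, with a mean of 0.405 ± 0.155 RPKM (SD, n = 6) in F2 ifosfamide, 0.23 ± 0.107 RPKM in F1 ifosfamide and 0.185 ± 0.0675 RPKM in F1 control. The other 6 of the 8 highest in F2 ifosfamide averaged 0.372 to 0.39 RPKM.

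In F1 ifosfamide the highest mean was on chromosome 13 at 53327001 to 53328000. F2 ifosfamide pools had 0.13 RPKM at the lowest, 0.28 at the median and 0.34 at the highest. F1 ifosfamide pools had 0.22, 0.41 and 0.59 RPKM, and F1 control pools 0.07, 0.165 and 0.28 RPKM. The groups overlapped, and no pool reached its neighbours' means of 0.822 and 0.958 RPKM in F1 ifosfamide. On chromosome 11 at 38160001 to 38161000 the pools of F1 ifosfamide were uneven, with 0.14 and 0.28 RPKM in pools 1 and 2 and 0.36 to 0.69 RPKM in pools 3 to 6. F2 ifosfamide pools had 0.04 to 0.31 RPKM there and F1 control pools 0.07 to 0.31 RPKM. In F1 ifosfamide its neighbours averaged 0.677 and 0.937 RPKM, and the dip's 0.69 RPKM in pool 5 was above the first of these. The dip was 0.212 of the mean of its neighbours in F2 ifosfamide and 0.508 in F1 ifosfamide. In F1 control, whose low values chose it, it was 0.188. The 8 highest in F1 ifosfamide averaged 0.393 to 0.412 RPKM.

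Only 1 dip reached 0.8 RPKM in any single ifosfamide pool, and none did in a control pool. It lay on chromosome 4 at 32061001 to 32062000 and had 0.81 RPKM, from 18 counts, in F2 ifosfamide pool 5. Its median was 0.245 RPKM over F2 ifosfamide pools, 0.24 RPKM over F1 ifosfamide pools and 0.23 RPKM over F1 control pools, so the 5 other F2 pools did not share the value. This dip was singled out after its values were seen.

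**Figure D3:**
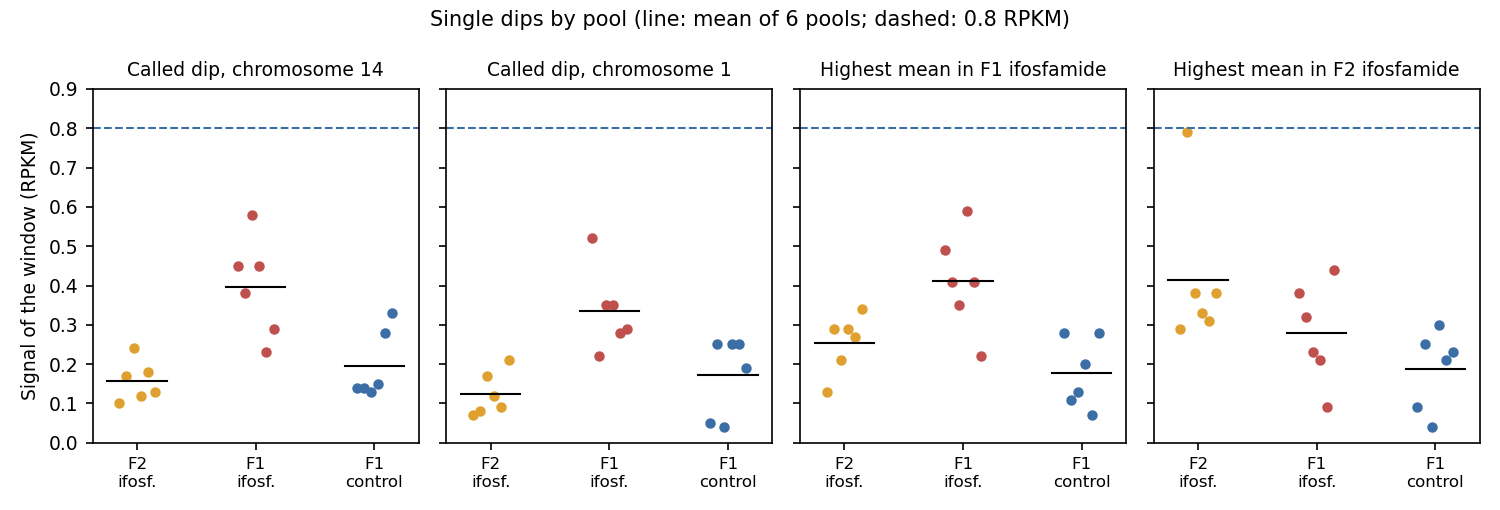
Signal of 4 dips in RPKM in each pool of F2 ifosfamide, F1 ifosfamide and F1 control, with a line at each group's mean. Shown are the dips called between the ifosfamide generations on chromosomes 14 and 1 and those with the highest group means, 0.413 RPKM in F2 ifosfamide and 0.412 RPKM in F1 ifosfamide; the dashed line is 0.8 RPKM, which none of these pools reaches.

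The comparison of F2 ifosfamide with F1 ifosfamide is the one that the rule on control values did not use. It asks whether dips differ between the generations of the exposed lineage. Generation and males per pool differ together in it and cannot be told apart. Tested by edgeR's quasi-likelihood test on counts over all windows, with Benjamini-Hochberg adjustment, 3458 dips had enough counts, 0 were called higher in F2 and 2 lower at an adjusted p below 0.05. Over all 2501621 windows tested, 0.378% were called higher and 0.197% lower. The dips' share of 0.0578%, both directions together, was close to the 0.0512% of 818365 other windows with control means above 0 and at most 0.2 RPKM. At an unadjusted p below 0.05 there were 237 dips (6.85%), 90 of them higher and 147 lower in F2, against 10.9% of all windows. DESeq2's Wald test without its independent filter called 0 dips and 0.112% of the windows in its fit, with 102 dips at an unadjusted p below 0.05 (2.95%, against 5.99% of windows).

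The log2 fold change of F2 over F1 ifosfamide had a median of -0.07 over the tested dips and 0.00 over all windows, with 1529 dips above 0 and 1929 below. The standard error of a single dip's value had a median of 0.412 on that scale. Across 3542 dips, the group means of F2 and F1 ifosfamide were correlated at r = 0.73 (Pearson) and rho = 0.73 (Spearman), as a description only, since dips differ in depth and all windows of a library share its reads. Among the 6 pools of a group, the chi-square of counts at dips, divided by its degrees of freedom, was 1.05 in F2 ifosfamide, 1.07 in F1 ifosfamide and 1.04 in F1 control, little above counting error. With F1 ifosfamide pools 3 to 6 alone, edgeR's test called 9 dips, 2 higher and 7 lower in F2, or 0.26% of those tested. Of the 508789 windows in that fit, 0.964% were called higher and 0.767% lower. The choice of those pools from the same counts favours calls.

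**Figure D4:**
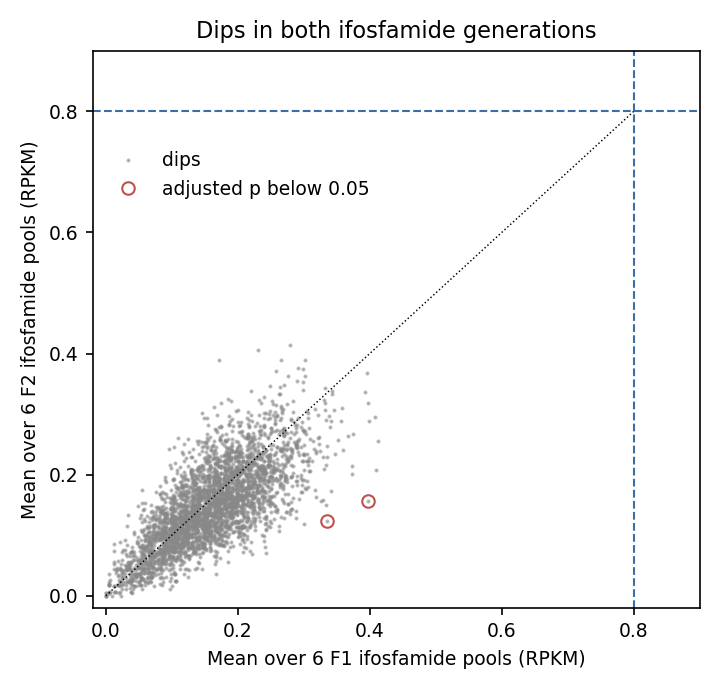
Mean signal of each of 3542 dips in F2 ifosfamide (vertical) and F1 ifosfamide (horizontal), in RPKM, with equal values on the dotted line and 0.8 RPKM on the dashed lines. All dips lie at or below 0.413 RPKM on both axes, and the 2 circled dips, with adjusted p below 0.05, are lower in F2.

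A dip on chromosome 14, at 9801001 to 9802000, was lower in F2 ifosfamide than in F1 ifosfamide. F2 ifosfamide pools had 0.1 RPKM at the lowest, 0.15 at the median and 0.24 at the highest, F1 ifosfamide pools had 0.23, 0.415 and 0.58 RPKM, and F1 control pools 0.13, 0.145 and 0.33 RPKM. The ifosfamide generations overlapped by a single pool on either side, and F2 pools lay within or below the control range. Summed over pools, it held 24 counts in F2 ifosfamide, 66 in F1 ifosfamide and 28 in F1 control. The log2 fold change of F2 over F1 ifosfamide was -1.30 (SE 0.32), with an adjusted p of 0.0279 in edgeR. Its neighbours averaged 0.94 and 1.13 RPKM in F2 and 1.27 and 1.51 RPKM in F1 ifosfamide, so the dip was 0.151 of its neighbours in F2 and 0.285 in F1. Without F2 pool 1, 4 or 6, or without F1 pool 3 or 4, the adjusted p by edgeR was 0.0556 to 0.113, which ended the call, and DESeq2 gave an adjusted p of 0.259.

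A dip on chromosome 1, at 238808001 to 238809000, was also lower in F2. F2 ifosfamide pools had 0.07 RPKM at the lowest, 0.105 at the median and 0.21 at the highest, and F1 ifosfamide pools 0.22, 0.32 and 0.52 RPKM, without overlap. F1 control pools had 0.04, 0.22 and 0.25 RPKM and overlapped both. The log2 fold change of F2 over F1 ifosfamide was -1.37 (SE 0.36), with an adjusted p of 0.0405 in edgeR. Leaving out any 1 of F2 pools 1 to 5 or of F1 pools 1, 3, 4 and 6 ended the call, with adjusted p of 0.0532 to 0.0983 by edgeR, and with F1 pools 3 to 6 alone it was 0.0599. DESeq2's Wald test gave an adjusted p of 0.327.

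A second dip 14 kb further along chromosome 1, at 238822001 to 238823000, leaned the other way. It had 0.25 RPKM at the lowest, 0.3 at the median and 0.65 at the highest in F2 ifosfamide pools, against 0.11, 0.155 and 0.28 RPKM in F1 ifosfamide pools. Control pools had 0.09, 0.165 and 0.19 RPKM, all below the F2 pools, while the ifosfamide generations overlapped. The rule chose the window for a low control mean, and it was named for high F2 values, so both choices favour that gap. How many of all windows separate in this way was not counted. Its log2 fold change of F2 over F1 ifosfamide was 1.19 (SE 0.32, adjusted p = 0.0515 by edgeR), which passed without F2 pool 1 (0.0382) or F1 pool 2 (0.0266) and with F1 pools 3 to 6 alone (0.0227). Without F2 pool 3 it was 0.285. The choice of pools 3 to 6 lowers the spread, as said above. Its right neighbour, at 238823001 to 238824000, was higher in F2 too, with means of 1.77 RPKM in F2 and 1.16 RPKM in F1 ifosfamide (log2 fold change 0.63, adjusted p = 0.0279 by edgeR). The dip at 238808001 was the second lowest p among dips lower in F2, and that at 238822001 the lowest among dips higher in F2. Of the 13 windows between them, none had an adjusted p below 0.4 by edgeR's test. That they are a pair was noticed after their values were seen.

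**Figure D5:**
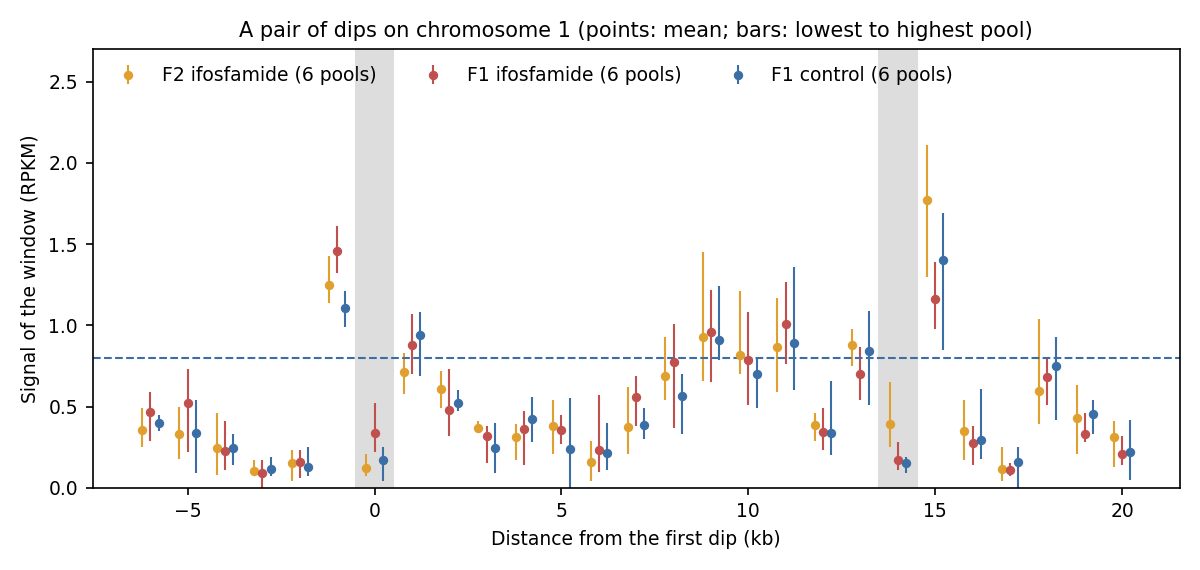
Signal in RPKM of 27 windows around a pair of dips on chromosome 1 (grey bands), by distance in kb from the first, with points at the mean and bars from the lowest to the highest of 6 pools of F2 ifosfamide, F1 ifosfamide and F1 control. F2 ifosfamide is lower than F1 ifosfamide in the first dip, at 0.123 against 0.335 RPKM, and higher in the second, at 0.39 against 0.172 RPKM.

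The other dips with the lowest p in this comparison did not pass the threshold with all pools. The further 4 with higher values in F2 ifosfamide lay on chromosomes 4, 5, 7 and 18, with adjusted p of 0.0929 to 0.127 by edgeR. On chromosome 4 at 183198001 to 183199000, F2 ifosfamide pools had 0.13 RPKM at the lowest, 0.175 at the median and 0.21 at the highest, and F1 ifosfamide pools had 0.03, 0.045 and 0.11 RPKM. The generations did not overlap there, at 27 and 9 counts over 6 pools. On chromosome 18 at 22093001 to 22094000 there were 14 counts in F2 and 2 in F1 ifosfamide. The further 3 with lower values in F2 lay at 41099001 and 73698001 on chromosome 8 and at 73169001 on chromosome 16, with means of 0.07, 0.0367 and 0.08 RPKM in F2 against 0.243, 0.167 and 0.242 RPKM in F1 ifosfamide, and adjusted p of 0.0561 to 0.0799 by edgeR. Some passed with fewer pools in edgeR's test. The dip at 41099001 had an adjusted p of 0.0426 without F1 ifosfamide pool 2, 0.0304 without pool 6 and 0.0357 with pools 3 to 6 alone. That at 73698001 had 0.043 without F1 ifosfamide pool 1 and 0.0464 without pool 6. That at 73169001 had 0.0498 without F2 ifosfamide pool 5, 0.0273 without F1 ifosfamide pool 1 and 0.0194 with pools 3 to 6 alone. On chromosome 5, the dip at 5035001 had 0.0337 with F1 ifosfamide pools 3 to 6 alone.

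The walls of the dips were called more often than the dips. Of 7060 neighbour windows tested between F2 and F1 ifosfamide, 210 were called higher and 48 lower in F2, together 3.65%, and at other windows with control means of 0.8 RPKM or more 2.44% were called. These windows hold many more counts than dips, and the difference between the shares was not tested. At 245 dips at least 1 neighbour was called, and at 13 both were, 10 of them with both higher in F2. The 193 dips beside a neighbour called higher in F2 had a median log2 fold change of -0.08. Beside 47 dips with a neighbour called lower it was -0.15. Over 3458 dips the log2 fold changes of a dip and of its neighbours were correlated at r = 0.13, a description across windows that share reads.

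The comparisons with F1 control are given as values only, since the rule used those pools and both share them. Between F2 ifosfamide and F1 control 3439 dips were tested and 0 called by edgeR, with a smallest adjusted p of 0.214. Over all windows of that comparison 0.00576% were called higher and 0.00238% lower. At an unadjusted p below 0.05 there were 182 dips (5.29%, against 7.26% of all windows), 131 of them higher. DESeq2 called 0 dips and 0% of windows, with 65 dips at that unadjusted level (1.89%, against 3.02% of windows). Between F1 ifosfamide and F1 control 3455 were tested and 0 called by edgeR, with a smallest adjusted p of 0.277. Over all windows 0.00296% were called higher and 0.0205% lower. At an unadjusted p below 0.05 there were 225 dips (6.51%, against 6.16% of all windows), 178 of them higher. DESeq2 called 0 dips and 0.0057% of windows, with 83 dips at that unadjusted level (2.4%, against 2.6% of windows). With F1 ifosfamide pools 3 to 6 alone, edgeR called 1 dip, that at 38160001 on chromosome 11, with a log2 fold change over F1 control of 1.41 and an adjusted p of 0.0496. Of the 508732 windows in that fit, 0.0126% were called higher and 0.0963% lower.

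The median log2 fold change of the dips was 0.08 for F2 ifosfamide over F1 control and 0.15 for F1 ifosfamide over F1 control. In windows outside the dips with control means above 0 and at most 0.2 RPKM it was 0.03 and 0.07, likewise above 0 in windows chosen for low control values. The authors' deposited table gives no adjusted p for any dip in either of its comparisons, and gives one for all 7060 neighbours. Of the neighbours, 3 had in the authors' deposited table an adjusted p below 0.05 for the F2 ifosfamide pools, and 8 had one for the F1 ifosfamide pools.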

How the data were processed

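Counts and RPKM values of 18 of the 34 libraries were used, and 16 (all F0 libraries and those of F2 controls) were not analysed here. The authors deposited raw counts per 1 kb window and library, and RPKM values rounded to 2 decimals, per the file headers. The adjusted p-values that the authors deposited (edgeR's, as the column names say) were only counted at dips and neighbours. FastQC, Trimmomatic, Bowtie2, SAMtools and edgeR are named with the Rnor_6.0 build in the submitters' processing notes, with versions and settings not given in the sources used here. The 6 control columns were identical in both tables.

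Dips were chosen on the authors' RPKM values of F1 control. They were fitted on the deposited counts of all windows with at least 12 counts over the 12 pools of a comparison, in edgeR 4.0.16 (R 4.3.3), with TMM normalization, the quasi-likelihood test without covariates and Benjamini-Hochberg adjustment over all windows, called at 0.05. Dips under that minimum were not tested. The fit was tested on simulated data. Alternatives used DESeq2 1.42.0, other size factors, dispersions, filters and pools, and most were fitted on dips, neighbours and 1 in 5 of the other windows. Floors and counts cover counting error only, and the labels name no molecular identifiers.

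The members and lists were chosen with earlier results of these data known. Regions named are the 8 deepest dips, the 8 highest means in each ifosfamide group, the 5 smallest p in each direction between F2 and F1 ifosfamide and every called dip, by a fixed rule. Exceptions are named as such. Coordinates are counted from 1. The annotation at hand was of another build, so no gene is named.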

Additional observations from a re-analysis of the deposited data

Results flagged for a closer look

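In 105 groups of 6 pools (9 summaries over dips and 3 groups for each of 32 named dips), 1 pool stood apart from the other 5 by Dixon's criterion in 14. The criterion's chance rate of about 1 in 20 is for continuous values. A group with a single read in 6 pools always meets it, and the named dips were picked for extreme values. The number 14 can therefore not be set against that rate. The share of dips above 0.4 RPKM was 0.847% in F1 ifosfamide pool 6, against 2.26% at the highest in that group. This share also depends on how whole counts translate into rounded RPKM. In F1 ifosfamide, 9 counts were 0.41 RPKM in pool 5, while in pool 6 10 counts were 0.36 RPKM and 12 counts 0.44 RPKM. How much of the difference this step makes was not tested. Most other cases were near-empty dips in which a single read made the difference. In F2 ifosfamide, pool 1 had 0.03 RPKM at 99080001 and 0.03 RPKM at 180784001 on chromosome 1. In F1 ifosfamide, pool 4 had 0.03 RPKM at 30645001 and pool 2 had 0.03 RPKM at 48569001, both on chromosome 6.

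In F1 control, pool 2 had 0.04 RPKM at 99080001 and 0.04 RPKM at 53669001 on chromosome 1, and pool 3 had 0.09 RPKM at 180784001. Control pool 5 had 0.04 RPKM at 48569001 on chromosome 6 and 0.39 RPKM at 128393001 on chromosome 8. On chromosome 20, control pool 1 had 0.05 RPKM at 144001 and control pool 4 had 0.3 RPKM at 30107001. Higher values stood apart in F2 ifosfamide, with 0.79 RPKM in pool 2 at 159890001 on chromosome 5 and 0.61 RPKM in pool 4 at 128393001 on chromosome 8.

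At 2 dips F2 and F1 ifosfamide differed by the direct test between those groups with edgeR. Neither dip was called against F1 control, whose low values chose the dips. The adjusted p by edgeR was 0.909 for F2 and 0.55 for F1 ifosfamide on chromosome 14, and 0.857 and 0.702 on chromosome 1. Both calls between the generations ended with DESeq2 and with pool number as a replicate block. The log2 fold change of F2 over F1 was -1.30 at 9801001 on chromosome 14 and -1.37 at 238808001 on chromosome 1.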

How the results depend on the processing

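The number of dips called between F2 and F1 ifosfamide, 2 with edgeR, was 0 with pool number as a replicate block and 0 with DESeq2's Wald test without independent filtering, 9 with F1 ifosfamide pools 3 to 6 alone, and 0 to 4 with 1 pool left out. It stayed at 2 without the filter, with estimateDisp, with median-of-ratios size factors and with 1 in 5 of the other windows. Same-numbered pools' deviations from their group means correlated weakly, at -0.138 to 0.071 over all comparisons. Between F2 ifosfamide and F1 control, the best-matching pool had the same number for pools 1, 2, 4 and 5, at r of 0.024 to 0.071. In the other comparisons it never had. Whether pool numbers pair the samples was not tested further. Both comparisons with F1 control gave 0 under every alternative that tested dips, the block included, except 1 for F1 ifosfamide pools 3 to 6 alone. DESeq2 with its filter gave no dip an adjusted p, and a minimum of 120 counts left at most 1 dip to test, so neither gives a value.

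No dip was filled under any list or pool set tried. Dips above 0.4 RPKM numbered 1 to 5 in F2 ifosfamide and 3 to 8 in F1 ifosfamide with 1 pool left out, 6 with F1 ifosfamide pools 3 to 6 alone and 1 in F2 ifosfamide for dips chosen on F1 ifosfamide. Those above 0.2 RPKM numbered 747 to 914 in F2 and 881 to 1043 in F1 ifosfamide with 1 pool left out, and those meeting the whole rule 2003 to 2111 and 1930 to 2010. With windows of at most 0.1 RPKM (806 dips), 2 in F2 and 6 in F1 ifosfamide were above 0.2 RPKM, 0 and 0 above 0.4 RPKM, and 620 and 614 met the whole rule. With neighbours of at least 1.2 RPKM (507 dips) these were 104 and 133, 1 and 1, and 401 and 368.

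The median ratio of dip to neighbours was 0.0542 in F2 ifosfamide, 0.0645 in F1 ifosfamide and 0.0518 in F1 control for windows of at most 0.1 RPKM, and 0.0795, 0.088 and 0.0761 for neighbours of at least 1.2 RPKM. It was 0.113 to 0.116, 0.122 to 0.126 and 0.11 to 0.127 with 1 control pool left out of the choice, and 0.119 in F1 control for dips chosen on F2 ifosfamide. For the 10 dips named for the smallest p in either direction between F2 and F1 ifosfamide, the log2 fold change kept its sign in each alternative run. These dips were picked for large changes in the same counts, so a reversed sign was unlikely from the start. With the replicate block the 2 called dips had adjusted p of 0.052 (chromosome 14) and 0.0712 (chromosome 1). Depth limits single dips, with about 20 counts per group. The alternatives with DESeq2 unfiltered, dips chosen on other groups, and pools 3 to 6 alone were added after seeing the data, and the cause of their changes was not tested.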
